A study of Homo sapiens with 8 samples.

Results

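The comparison described here is WSB2 knockdown (KD) against control in U2OS cells after TNF-α. Its libraries were set by their labels, but the comparison and the gene lists were chosen with earlier results of these data known. The comparison takes 4 of the 8 libraries of the series, 2 from KD cells and 2 from control cells. U2OS cells are an established line from a human osteosarcoma. Control cells carried a control shRNA and KD cells a shRNA against WSB2, a short hairpin RNA delivered by a lentivirus that the cell processes into a guide against the WSB2 transcript, and both had received TNF-α 5 h before the RNA was taken. The 4 other libraries are from the same control and KD cells without TNF-α. They take no part in the fold changes with TNF-α, but they share the fit that gives every standard error and P-value, and they give the KD difference without TNF-α. No further allele or drug differs between the groups in the labels. Only 1 WSB2 shRNA is labelled, the labels do not say whether the libraries of a group came from separate cultures, and P-values therefore measure the spread between these libraries. The concentration of TNF-α, the WSB2 shRNA used for sequencing and the strand setting of the counting are not given in the sources used here.

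WSB2 is a WD-repeat protein with a SOCS box, the short motif through which such proteins join a ubiquitin ligase built on cullin 5. The ligase attaches ubiquitin to the proteins that its adaptor binds. TNF-α binds its receptor and frees NF-κB dimers such as RelA with p50 from their inhibitors, and these dimers switch on chemokines, cytokines and the genes of their own inhibitors. It also activates MAP kinases, which act on AP-1 factors and on growth factor genes. The question put by the design is how the transcriptome of stimulated cells differs when WSB2 is low.

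The 4 stimulated libraries held 16554410 to 18677023 reads, and the variance between the libraries of a group was 2.49 times sampling noise in KD cells and 4.63 times in control cells. In the unstimulated pairs, which enter the same estimate of the spread, it was 7.23 times in KD and 33.04 times in control cells. Values are FPKM, fragment numbers corrected for how long a gene is and how deep its library was. Differences were tested on log2(FPKM + 1) with limma over 16528 genes, and the added 1 makes fold changes of genes at around 1 FPKM or less too small. Of the markers fixed for other cell types, all 8 leukocyte markers were below 1 FPKM and 4 of them were at 0 in the 4 libraries, with a summed level of 0.427 and 0.356 FPKM in control and 0.365 and 0.534 FPKM in KD cells. Endothelial markers summed to 93.7 and 102 FPKM in control and to 87.9 and 85.2 FPKM in KD cells, nearly all of it EGFL7, and 5 of the 6 were below 1 FPKM. Epithelial markers summed to 21.3 and 21.8 FPKM in control and to 25.6 and 25.9 FPKM in KD cells, most of it KRT14, with 5 of 7 below 1 FPKM. The mesenchymal markers of the line summed to 750.5 to 772 FPKM in the 4 libraries, and 3 of the 10, TWIST1 among them, were below 1 FPKM.

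With TNF-α, 19 genes differed between KD and control cells at an adjusted p under 0.05. The 10 that rose in KD cells were CXCL8, CCL20, ESM1, DUSP5, KRTAP2-3, AREG, HBEGF, AC073896.2, PHLDA1 and IL1B, which make 0.0605% of the genes tested. AC073896.2 could be tested only because of its reads in the KD libraries with TNF-α, where it was high. The 9 that fell were ACKR3, WSB2, COL3A1, IFITM2, HNRNPR, MATN2, VOPP1, LIMK1 and BTG2, or 0.0545% of the genes tested. At an unadjusted p under 0.05, 731 genes (4.42%) were higher and 617 genes (3.73%) were lower. The thresholds named in the study's methods are that p together with an absolute log2 fold change above 1. By them 12 genes (0.0726%) were higher and 6 genes (0.0363%) lower. The study used edgeR, so these counts on log2(FPKM + 1) are not its counts. With 0.1 added in place of 1 they were 82 and 110, and with a voom fit of recovered reads 107 and 167. The median log2 fold change over all genes tested was -0.00015, and 49.9% of them were above 0. In bulk RNA, fewer cells that express a gene and less RNA of it per cell cannot be told apart.

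**Figure D1:**
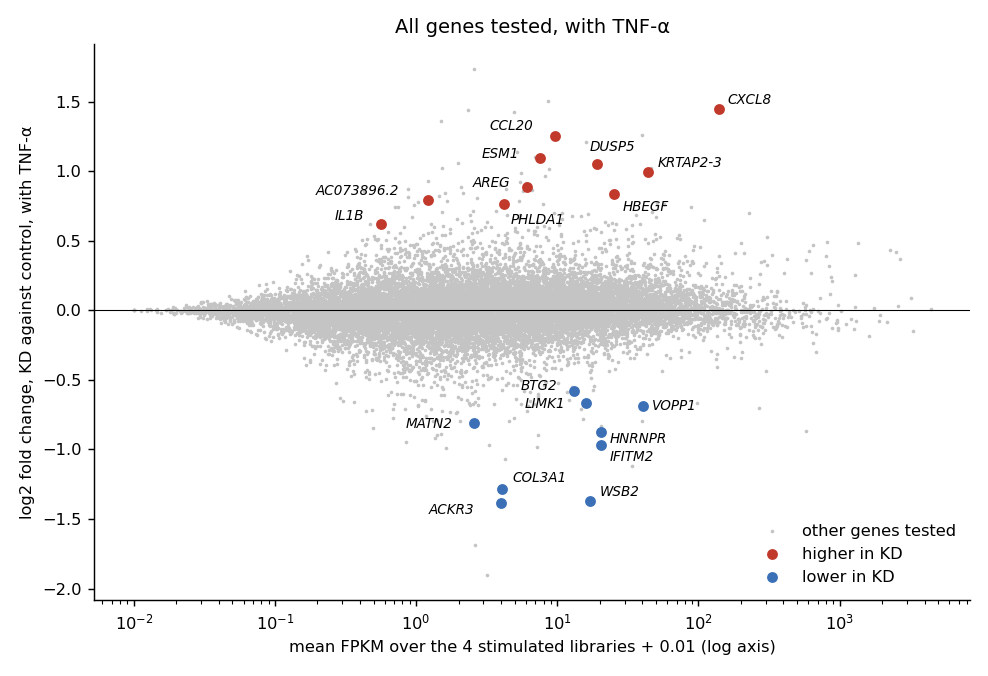
Each point is 1 of the 16528 genes tested, with its mean FPKM over the 4 stimulated libraries plus 0.01 on a log axis and the log2 fold change in KD cells on the other axis. The 10 genes that rose (red) lie between 0.62 and 1.45 and the 9 that fell (blue) between -1.39 and -0.58, while the cloud of other genes is centred on 0.

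The calls rested on all 4 libraries. With any 1 of them left out, 0 to 3 of the 19 calls passed the threshold. The direction could not turn in these fits, since the libraries of the groups do not overlap in any of the 19 genes. The fit without the second KD library called 0 genes with limma, with 791 at an unadjusted p under 0.05. The unstimulated libraries also decided the number of calls, which was 24 higher and 15 lower with the 4 stimulated libraries alone, 3 and 4 without the unstimulated KD pair and 69 and 32 without the unstimulated control pair.

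The target of the shRNA was measured first. WSB2, on the minus strand of chromosome 12 from 118032694 to 118062430 (GRCh38), was at 25.0 and 25.3 FPKM in control cells and at 9.002 and 9.18 FPKM in KD cells. The KD libraries therefore kept 0.362 times the control level, and the libraries of both groups were far apart compared with their own spread. On the log2 scale WSB2 fell by 1.37 (standard error 0.0685, adjusted p = 0.00113), and WSB2 stayed called with 3 of the 4 libraries left out in turn. The gene overlaps RFC5, a clamp-loader subunit on the opposite strand, which was at 15.1 and 14.9 FPKM in control and 15.9 and 13.8 FPKM in KD cells.

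No partner of the WSB2 ligase passed the test. Of the 19 WSB proteins and cullin 5 partners tested, WSB2 was the only one called, 9 were above 0, and the median log2 fold change was -0.03. CUL5, the scaffold itself, had a log2 fold change of -0.10, and WSB1, the closest relative of WSB2, was at 3.30 and 2.65 FPKM in control and 3.87 and 3.58 FPKM in KD cells, with a log2 fold change of 0.25 (adjusted p = 0.673). SPSB1, another SOCS-box adaptor, was at 18.5 and 18.9 FPKM in control and at 25.2 and 25.6 FPKM in KD cells without passing the adjusted threshold (0.42, adjusted p = 0.131). SPSB4, also on this list, lay the other way at 3.24 and 3.50 FPKM in control and 2.68 and 2.77 FPKM in KD cells (-0.23, adjusted p = 0.605).

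The lowered genes other than WSB2 have roles at the cell surface, in the matrix, in RNA binding and in the cytoskeleton. ACKR3 is an atypical receptor that takes up the chemokine CXCL12 without signalling through G proteins. It was at 5.54 and 6.95 FPKM in control cells and at 1.64 and 1.88 FPKM in KD cells, from 64 to 242 reads a library. Both KD libraries were under both control libraries, at 0.282 times their mean (log2 fold change -1.39, standard error 0.11, adjusted p = 0.00883). ACKR3 was also the only one of the 9 lowered genes that TNF-α itself lowered in control cells, from 19.2 and 17.9 FPKM to the level above (log2 fold change -1.44, adjusted p = 0.000437), a comparison that shares the stimulated control libraries and in which 1.14% of genes fell and 3.1% rose. CXCR4, the signalling receptor of CXCL12, and CXCL12 were too low to test. Of the 5 CXCL12 receptors and adrenomedullin genes tested, ACKR3 alone was called, and RAMP1, a partner of the calcitonin-type receptors, had a log2 fold change of -0.36 without passing.

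COL3A1 encodes the chain of type III collagen, a fibrillar collagen of elastic tissues. Its level was 5.66 and 6.60 FPKM in control and 1.85 and 1.98 FPKM in KD cells, 0.313 times the control mean (log2 fold change -1.29, standard error 0.11, adjusted p = 0.00883). Of 27 collagen genes tested, COL3A1 was the only one called, 15 were above 0 and the median was 0.02. COL5A2, its neighbour on chromosome 2, was at 12.4 and 13.5 FPKM in control and 11.5 and 12.0 FPKM in KD cells, and COL1A1 and COL1A2, the chains of type I collagen, had log2 fold changes of -0.06 and 0.05. COL13A1, a transmembrane collagen, lay on the other side at 4.13 and 4.74 FPKM in control and 6.62 and 7.03 FPKM in KD cells without passing (0.53, adjusted p = 0.17).

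MATN2, an adaptor protein of the extracellular matrix, was at 3.64 and 3.43 FPKM in control and 1.59 and 1.59 FPKM in KD cells (log2 fold change -0.81, standard error 0.10, adjusted p = 0.0489). It overlaps RPL30 on the opposite strand of chromosome 8. Among 29 other genes of the matrix and of collagen processing, 0 passed the adjusted threshold, 7 were lower and 0 higher at an unadjusted p under 0.05, against 3.73% and 4.42% of all genes, and the median was -0.04. The lower members included BGN, the small proteoglycan biglycan, at 1.95 and 2.06 FPKM in control and 0.779 and 1.19 FPKM in KD cells. MFAP5, a microfibril protein, was at 6.32 and 6.36 FPKM in control and at 4.30 and 3.85 FPKM in KD cells, and LUM, the proteoglycan lumican, at 1.40 and 1.49 against 0.847 and 0.883 FPKM. LAMA4, THBS3, P4HA2 and FBLN1 made up the rest, between -0.26 and -0.22. FN1 and TNC, the glycoproteins fibronectin and tenascin-C, had values of 0.39 and 0.34 in the other direction, and the list held 10 members above 0 in all.

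HNRNPR, an RNA-binding protein of the heterogeneous nuclear ribonucleoprotein family, was at 27.4 and 26.1 FPKM in control and 14.1 and 14.1 FPKM in KD cells, from 1934 to 3782 reads. Its level in KD cells was 0.527 times that in control cells (log2 fold change -0.88, standard error 0.0741, adjusted p = 0.00883). Its close relative SYNCRIP was at 15.4 and 15.5 FPKM in control and 16.4 and 17.5 FPKM in KD cells. IFITM2, an interferon-induced membrane protein that restricts virus entry, was at 27.0 and 27.7 FPKM in control and 13.2 and 13.9 FPKM in KD cells (log2 fold change -0.97, standard error 0.12, adjusted p = 0.0489). Of its relatives, IFITM3 was at 118 and 115 FPKM in control and 104 and 99.5 FPKM in KD cells (adjusted p = 0.813), and IFITM1, which overlaps IFITM2, was below 1 FPKM in all 4 libraries. The 3 genes have similar sequences, so the assignment of reads between them is uncertain.

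The remaining lowered genes act in the cytoskeleton and in growth control. LIMK1, a kinase that phosphorylates the actin-severing protein cofilin, was at 19.4 and 20.02 FPKM in control and 12.4 and 11.7 FPKM in KD cells (log2 fold change -0.67, adjusted p = 0.0489), while LIMK2 was at 10.9 and 11.1 against 10.6 and 9.60 FPKM. VOPP1, a vesicular membrane protein, was at 50.0 and 49.8 FPKM in control and 31.9 and 29.3 FPKM in KD cells (-0.69, adjusted p = 0.035). BTG2, an antiproliferative protein that binds the deadenylase complex and a known p53 target, was at 15.7 and 16.5 FPKM in control and 10.3 and 10.5 FPKM in KD cells (-0.58, adjusted p = 0.0489). All 3 had KD libraries below both control libraries. BTG1, the nearest relative of BTG2, was at 5.08 and 4.86 FPKM in control and 6.98 and 7.29 FPKM in KD cells without passing (0.45, adjusted p = 0.233).

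BTG2 was the only called gene among the 22 p53 targets tested, whose median was -0.08 with 8 above 0. CCNG1, which encodes cyclin G1, and DDB2, a DNA damage sensor, were lower at an unadjusted p under 0.05 with values of -0.37 and -0.27, while PLK3 and TNFRSF10B, a kinase of the stress response and a death receptor for TRAIL, were higher at 0.48 and 0.40. CDKN1A and MDM2, the classic members, had log2 fold changes of 0.16 and -0.13.

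**Figure D2:**
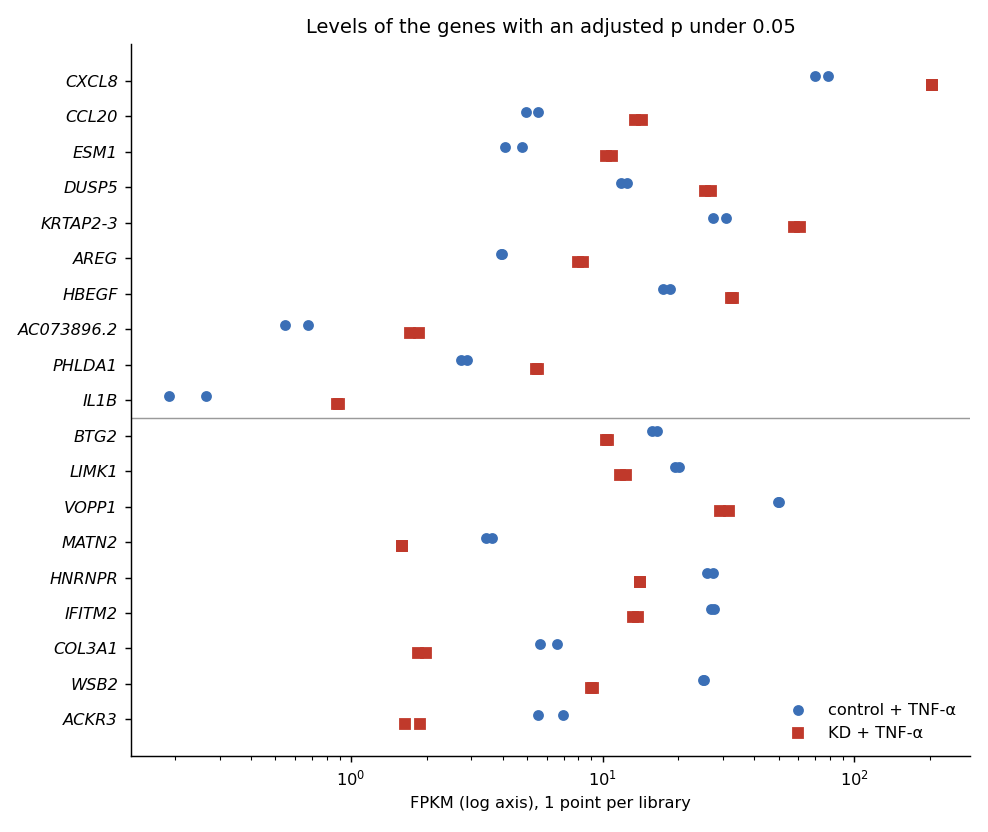
FPKM of the 19 called genes on a log axis, with 1 point for each of the 2 control libraries (blue circles) and the 2 KD libraries (red squares) after TNF-α. In every gene the 2 libraries of a group lie closer to each other than to those of the other group; WSB2 is at 25.0 and 25.3 FPKM in control and 9.002 and 9.18 FPKM in KD cells.

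The raised genes include 2 chemokines, 1 interleukin, 2 ligands of the EGF receptor and 2 genes that follow ERK signalling. CXCL8, the neutrophil chemokine IL-8, was at 78.7 and 69.9 FPKM in control and 204 and 204 FPKM in KD cells, and CCL20, the ligand of CCR6, at 5.52 and 4.96 against 13.5 and 14.3 FPKM. These are the largest log2 fold changes among the raised genes, 1.45 (standard error 0.0936, adjusted p = 0.00398) and 1.26 (standard error 0.13, adjusted p = 0.0209). CXCL8 passed under each of 11 other ways of fitting the same data and CCL20 under 8 of them. The stretches before their first exons are shown because these genes gave the largest differences among the raised genes and their promoters belong to the best known targets of NF-κB. The sequences are from RefSeq (GRCh38.p14), on the plus strand, at chr4:73740319-73740505 for CXCL8 and chr2:227813592-227813821 for CCL20. Capitals mark matches to the κB core GGANTTTCC and to the AP-1 site TGANTCA, searched on both strands, of which neither holds the other.
CXCL8: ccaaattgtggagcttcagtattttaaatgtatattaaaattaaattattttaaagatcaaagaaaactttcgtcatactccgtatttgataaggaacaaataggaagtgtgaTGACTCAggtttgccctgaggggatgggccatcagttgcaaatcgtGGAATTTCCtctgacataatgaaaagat
CCL20: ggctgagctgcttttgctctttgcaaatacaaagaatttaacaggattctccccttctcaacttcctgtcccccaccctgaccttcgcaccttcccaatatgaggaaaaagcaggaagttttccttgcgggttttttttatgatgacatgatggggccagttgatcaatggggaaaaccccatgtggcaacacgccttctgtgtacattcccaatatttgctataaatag

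In the 250 bases before the RefSeq start, CXCL8 held TGACTCA from -137 to -131 and GGAATTTCC from -91 to -83. CCL20 held no match to either searched string. Other forms of the κB motif were not searched, so CCL20 may hold one. Promoters on chromosome 8, where MATN2 lies, were left out of the search. Of the 19 called genes, 13 had a promoter that was searched, 8 raised and 5 lowered. The κB core was found in 2 of the 8, CXCL8 and PHLDA1 (GGAGTTTCC), and in 1 of the 5, BTG2 (GGAAAGTCC read on the other strand). It was found in 1.79% of the 27305 genes searched. The whole PHLDA1 window and the BTG2 match lie in annotated exons, and only the CXCL8 match to this core lies outside them. The AP-1 site was found in CXCL8 and at 1 of several starts of VOPP1, and in 8.06% of the genes searched. Counted over the 35116 single promoters of the same length, the shares were 1.45% and 6.57%. A match describes letters in this window and is not a measured site.

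The rest of the chemokines were spread in both directions. Of 16 tested, 9 were above 0, the median was 0.15, and 6 were higher and 1 lower at an unadjusted p under 0.05, beside 4.42% and 3.73% of all genes. CXCL3, another neutrophil chemokine, was at 1.05 and 1.29 FPKM in control and 3.18 and 2.82 FPKM in KD cells (0.89, adjusted p = 0.117), and CCL3 at 0.631 and 0.391 against 1.51 and 2.29 FPKM (0.93, adjusted p = 0.168). CCL2, the monocyte chemokine and one of the genes that TNF-α raised most in control cells, was at 40.7 and 37.5 FPKM in control and 49.2 and 49.1 FPKM in KD cells (0.32, adjusted p = 0.379). CCL5, which attracts T cells, lay in the opposite direction at 3.12 and 3.69 FPKM in control and 1.72 and 1.84 FPKM in KD cells (-0.66, adjusted p = 0.117). CXCL10, the interferon-inducible chemokine, had a log2 fold change of 0.14.

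IL1B, the cytokine interleukin-1β, was the only called member of 18 interleukins and colony-stimulating factors. It was at 0.264 and 0.189 FPKM in control and 0.897 and 0.879 FPKM in KD cells, from 13 and 9 reads against 48 and 43, so its level was low in every library (log2 fold change 0.62, standard error 0.0600, adjusted p = 0.0162). The list had a median of 0.24, 12 members above 0, and 8 higher against 1 lower at an unadjusted p under 0.05, beside those same shares of all genes. IL11, a cytokine of the IL-6 family, was at 29.9 and 30.1 FPKM in control and 46.8 and 46.3 FPKM in KD cells (0.62, adjusted p = 0.0816). LIF, of the same family, was at 66.1 and 71.9 against 90.5 and 90.8 FPKM, and CSF2, the factor GM-CSF, at 79.3 and 77.1 against 111 and 105 FPKM. IL6 itself had a value of 0.25 (adjusted p = 0.698), and IL34, a ligand of the CSF1 receptor, was on the lower side at -0.39.

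In the NF-κB pathway itself, of 19 subunits and feedback genes, 0 passed the adjusted threshold and the median was 0.08. RELA, which encodes the subunit RelA, had a log2 fold change of -0.00, NFKBIA, the inhibitor IκBα, 0.06, and TNFAIP3, the deubiquitinase A20, 0.08. NFKB1, the precursor of p50, was at 43.6 and 41.7 FPKM in control and 52.5 and 53.5 FPKM in KD cells (0.31, adjusted p = 0.483), TRAF1, an adaptor of TNF receptors, at 43.4 and 43.9 against 61.8 and 65.0 FPKM (0.53, adjusted p = 0.117), and BCL3, a nuclear cofactor of p50, at 32.3 and 32.1 against 25.6 and 26.5 FPKM (-0.30, adjusted p = 0.304).

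Among the EGF family, 2 ligands rose. HBEGF was at 17.3 and 18.5 FPKM in control and 32.3 and 32.9 FPKM in KD cells (log2 fold change 0.83, standard error 0.0760, adjusted p = 0.0125), and AREG, amphiregulin, at 3.93 and 3.97 against 7.97 and 8.37 FPKM (0.89, standard error 0.0985, adjusted p = 0.0332). The median of the 9 members tested was 0.45, the highest of the lists with at least 4 members tested, and 5 members were higher and 0 lower at an unadjusted p under 0.05, beside 4.42% and 3.73% of all genes. TGFA, a further ligand of the receptor, was at 3.23 and 3.49 FPKM in control and 5.34 and 5.49 FPKM in KD cells (0.56, adjusted p = 0.131), EREG, epiregulin, at 0.473 and 0.442 against 0.941 and 1.15 FPKM, and the receptor EGFR at 4.22 and 4.39 against 6.18 and 6.29 FPKM (0.45, adjusted p = 0.348). ERBB2 and ERBB3, the other receptors tested, had values of -0.09 and -0.04.

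Genes that read out the kinase ERK were taken from a list chosen with earlier results of these data known. A link to the EGF family values was not tested. All 17 ERK output and feedback genes tested had log2 fold changes above 0 (median 0.28), 11 were higher and 0 lower at an unadjusted p under 0.05, beside 4.42% and 3.73% of all genes, of which 49.9% were above 0, and DUSP5 and PHLDA1 were called. DUSP5, a nuclear phosphatase of ERK, was at 12.4 and 11.8 FPKM in control and 25.6 and 26.9 FPKM in KD cells (1.05, standard error 0.0824, adjusted p = 0.00883). PHLDA1, a pleckstrin-like protein, was at 2.74 and 2.90 against 5.53 and 5.43 FPKM (0.76, standard error 0.0930, adjusted p = 0.0489). SPRY2, a feedback inhibitor of receptor kinases, was at 3.48 and 2.75 FPKM in control and 5.54 and 5.66 FPKM in KD cells (0.69, adjusted p = 0.121), and FOSL1, an AP-1 subunit, at 162 and 169 against 232 and 232 FPKM (0.49, adjusted p = 0.221). DUSP6, the cytoplasmic ERK phosphatase, had 0.19 and CCND1, cyclin D1, 0.05, so the members were not equally far from 0.

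Immediate-early factors had a median of 0.24 with 16 of 20 above 0. None was called, and 10 were higher and 1 lower at an unadjusted p under 0.05, beside 4.42% and 3.73% of all genes. EGR1, a zinc finger factor, was at 38.2 and 38.7 FPKM in control and 61.9 and 61.6 FPKM in KD cells (0.67, adjusted p = 0.0914), MAFF, a small Maf protein, at 17.4 and 18.4 against 27.6 and 28.2 FPKM (0.61, adjusted p = 0.17), and JUN at 138 and 145 against 165 and 168 FPKM (0.24, adjusted p = 0.48). ATF3, a stress-induced repressor, was lower at 7.28 and 7.16 against 5.11 and 5.76 FPKM (-0.35, adjusted p = 0.312).

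Genes that break down the matrix, listed with inhibitors of such enzymes, lay mostly above 0. Of 19 genes of plasminogen activation and metalloproteinases, 18 were above 0, the median was 0.23, 9 were higher and 0 lower at an unadjusted p under 0.05, beside 4.42% and 3.73% of all genes, and 0 passed the adjusted threshold. MMP3, stromelysin, was at 58.3 and 57.4 FPKM in control and 80.9 and 86.1 FPKM in KD cells (0.52, adjusted p = 0.0786). PLAU, the urokinase that cleaves plasminogen, was at 24.2 and 21.0 against 31.5 and 30.9 FPKM, and its receptor PLAUR at 47.5 and 49.4 against 65.3 and 63.8 FPKM. MMP1, the interstitial collagenase, had 0.09 and TIMP2, an inhibitor of these enzymes, -0.05. SERPINE2 and SERPINB2, inhibitors of plasminogen activators, lay on the higher side with the enzymes. Their values were 0.39 (adjusted p = 0.131) and 0.44 (adjusted p = 0.0786), the latter below 1 FPKM in all 4 libraries. SERPINB2, among the 9 higher members, held 8 and 5 reads in control and 23 and 28 reads in KD cells. Only the KD libraries with TNF-α held at least 10, so it could be tested only because of the group where it was high.

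YAP and TEAD targets had a median of 0.17 with 13 of 17 above 0. CTGF, a matricellular growth factor, was just outside the threshold at 177 and 169 FPKM in control and 285 and 278 FPKM in KD cells (0.70, adjusted p = 0.0505), CYR61, its relative, was at 279 and 291 against 371 and 379 FPKM (0.39, adjusted p = 0.207), and F3, tissue factor, at 20.6 and 18.7 against 27.2 and 28.3 FPKM (0.48, adjusted p = 0.129). AJUBA, a LIM protein, was lower at -0.34, and TEAD1 and TEAD4 were at -0.07 and 0.06.

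ESM1, the secreted proteoglycan endocan, was the only called gene of 17 angiogenic factors. It was at 4.76 and 4.09 FPKM in control and 10.3 and 10.8 FPKM in KD cells (1.09, standard error 0.12, adjusted p = 0.0318). VEGFA had a value of 0.02 and VEGFC 0.20, and PDGFB, a growth factor for mesenchymal cells, was lower at -0.35. KRTAP2-3, a keratin-associated protein of the hair shaft, was at 31.0 and 27.5 FPKM in control and 60.7 and 57.5 FPKM in KD cells (0.99, standard error 0.0847, adjusted p = 0.00883). It has near-identical neighbours, and KRTAP2-4 was at 3.87 and 3.06 against 7.42 and 7.37 FPKM (adjusted p = 0.117), so reads may be shared between them. AC073896.2 is an unnamed transcript that overlaps CS and CNPY2 on the other strand of chromosome 12, and it rested on 5 and 6 reads in control and 17 and 17 reads in KD cells (0.79, adjusted p = 0.0428). Without the strand setting its reads cannot be told apart from theirs. Only the KD libraries with TNF-α held at least 10 reads of AC073896.2. It was thus tested only because of the group where it was high, and its call has that limit. CS, citrate synthase, was at 55.0 and 52.4 FPKM in control and 51.6 and 51.1 FPKM in KD cells.

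**Figure D3:**
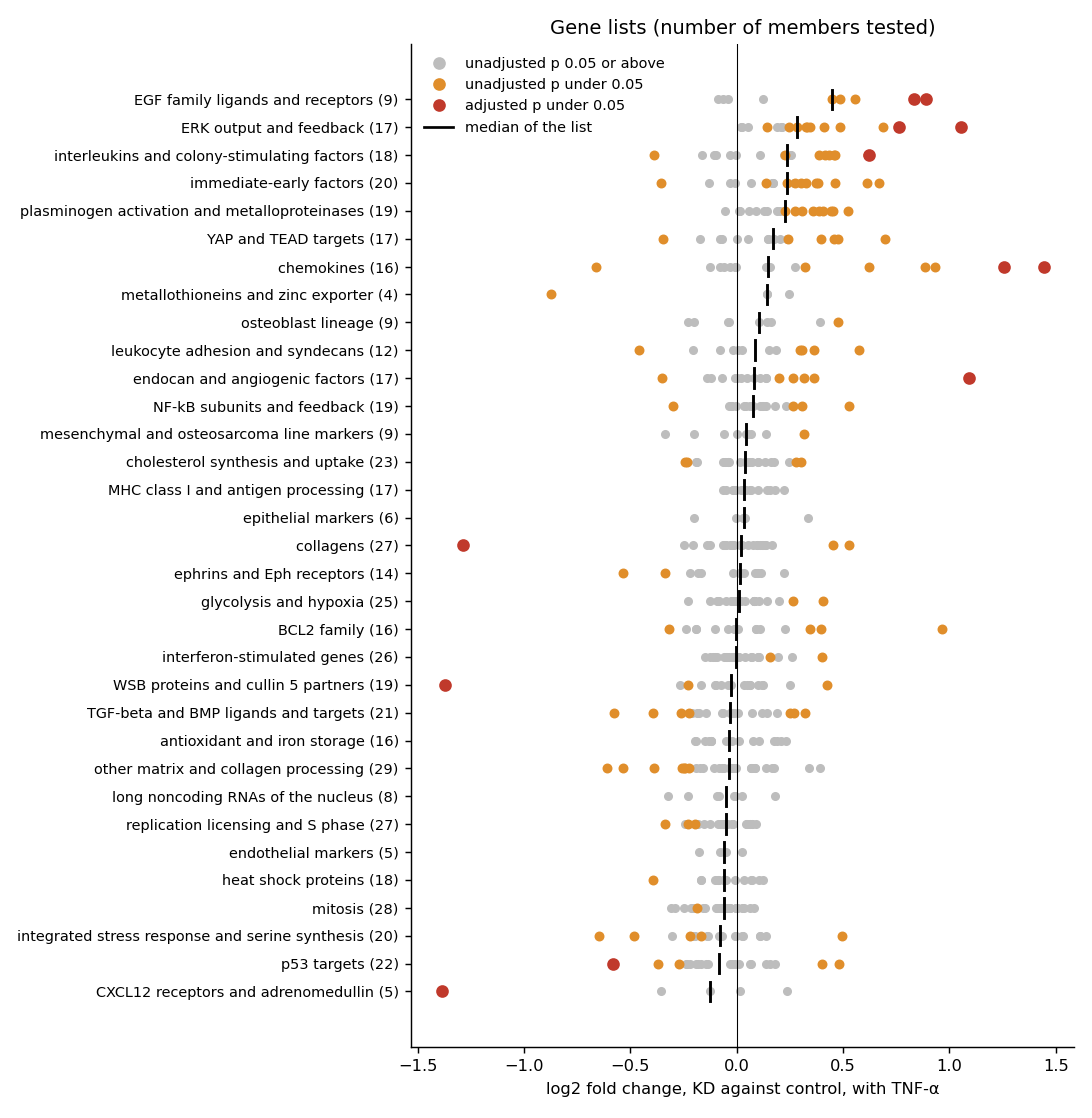
KD against control log2 fold changes after TNF-α for each tested member of the lists with at least 4 members tested, ordered by their medians (black bars), with colours for the adjusted and unadjusted p. EGF family (median 0.45) and ERK output (median 0.28) stand at the top, and most other medians lie within 0.1 of 0.

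Of 12 leukocyte adhesion genes and syndecans, 0 were called and 4 were higher and 1 lower at an unadjusted p under 0.05, beside 4.42% and 3.73% of all genes. ITGA2, a subunit of a collagen receptor, was at 6.06 and 4.71 FPKM in control and 8.68 and 8.21 FPKM in KD cells (0.57, adjusted p = 0.522), and SDC4, a syndecan, was at 378 and 362 FPKM in control and 484 and 469.7 FPKM in KD cells (0.37, adjusted p = 0.229), while SDC2, a relative, was lower at 6.90 and 7.85 against 5.10 and 5.08 FPKM (-0.46, adjusted p = 0.145). ICAM1 and VCAM1, the inducible adhesion molecules, had values of 0.02 and 0.01. Of 16 BCL2 family genes, whose median was -0.00, the survival gene BCL2A1 was at 5.83 and 4.53 FPKM in control and 9.57 and 12.6 FPKM in KD cells (0.96, adjusted p = 0.136), PMAIP1, the death gene NOXA, at 27.0 and 26.8 against 35.4 and 36.1 FPKM (0.40, adjusted p = 0.117), and BOK, a death effector, at 61.8 and 70.2 against 53.1 and 52.0 FPKM (-0.32, adjusted p = 0.425).

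Of 21 TGF-β and BMP genes tested, 3 were higher and 4 lower at an unadjusted p under 0.05, beside 4.42% and 3.73% of all genes, and 0 passed the adjusted threshold. BAMBI, a decoy receptor, was at 6.44 and 7.79 FPKM in control and 4.58 and 4.27 FPKM in KD cells (-0.58, adjusted p = 0.232), TGFB2 at 14.2 and 12.6 against 9.86 and 10.0 FPKM (-0.39), and BMP2 at 13.2 and 14.4 against 18.0 and 17.0 FPKM (0.32). Of 14 ephrins and Eph receptors, EPHB3 was at 1.803 and 1.86 FPKM in control and 0.932 and 0.977 FPKM in KD cells (-0.53, adjusted p = 0.146) and EFNA1, an ephrin, at -0.34, while 8 were above 0. Of the osteoblast lineage genes 10 of 18 were below 1 FPKM, and SPP1, osteopontin, was at 0.677 and 0.671 against 1.32 and 1.34 FPKM.

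Stress response genes had members on both sides of 0. In the integrated stress response, 1 gene was higher and 4 lower at an unadjusted p under 0.05 of 20 tested, beside 4.42% and 3.73% of all genes, with a median of -0.08. DDIT4, an inhibitor of mTORC1, was at 15.4 and 14.7 FPKM in control and 9.67 and 8.85 FPKM in KD cells (-0.64, adjusted p = 0.0824), DDIT3, the factor CHOP, at 6.49 and 6.15 against 4.38 and 4.11 FPKM (-0.48, adjusted p = 0.513), and PPP1R15A, the phosphatase subunit GADD34, lay opposite at 26.8 and 29.8 against 39.3 and 41.1 FPKM (0.49, adjusted p = 0.135). ATF4, the factor at the head of the response, had -0.00. MT2A, the main metallothionein and a zinc-binding protein, was at 783 and 709 FPKM in control and 415 and 399 FPKM in KD cells (-0.87, adjusted p = 0.207), and its relatives MT1X and MT1E had values of 0.14 and 0.25. The heat shock proteins had 1 lower member at that p, DNAJB4 (-0.39), and a median of -0.06.

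Most cell cycle genes lay slightly below 0. Of 27 genes of replication licensing and S phase, 20 were below 0, and in 12 the KD libraries were both under the control libraries, against 22.3% of all genes, and in 3 both above, against 23.9%. TYMS, thymidylate synthase, was at 85.2 and 83.0 FPKM in control and 66.1 and 66.9 FPKM in KD cells (-0.33, adjusted p = 0.259), and RRM2, a ribonucleotide reductase subunit, at 46.6 and 43.3 against 39.1 and 39.2 FPKM (-0.20, adjusted p = 0.604). Of 28 mitosis genes, 22 were below 0, with 13 fully under and 2 fully above the control libraries. TOP2A, which untangles replicated DNA, had a log2 fold change of -0.29, KIF20A, a mitotic kinesin, -0.19, and CDK1 0.00. The medians of -0.05 and -0.06 are small, and 0 of these 55 genes passed the adjusted threshold.

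Several programs stayed near the median of all genes. The 26 interferon-stimulated genes had a median of -0.00 with 13 on each side, DDX58, the RNA sensor RIG-I, being the highest at 1.88 and 1.55 FPKM in control and 2.26 and 2.92 FPKM in KD cells (0.40, adjusted p = 0.395). The 17 genes of MHC class I and antigen processing held 0 members at an unadjusted p under 0.05 (median 0.03), and B2M, the light chain of these molecules, had a value of 0.02. The 25 genes of glycolysis and hypoxia had a median of 0.01, with HK2, hexokinase 2, highest at 12.3 and 13.1 against 17.4 and 17.0 FPKM (0.41). The 23 cholesterol genes had a median of 0.04. Of them, 2 were higher (HMGCS1 0.30, STARD4 0.28) and 2 lower (FDFT1 -0.24, NSDHL -0.23) at an unadjusted p under 0.05, beside 4.42% and 3.73% of all genes. The 16 antioxidant and iron storage genes held 0 members at that p. MALAT1 and NEAT1, RNAs kept in the nucleus, had values of -0.32 and -0.23 without passing.

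The largest differences were also ranked irrespective of the adjusted p. Of the 15 highest genes with an unadjusted p under 0.05, no overlap between the groups and at least 1 FPKM, 5 were called, and of the 10 others 4 were mitochondrial, 5 were pseudogenes and 1 was BCL2A1. Of the mitochondrial ones, only MT-ATP8 is protein-coding. MT-TS2, MT-TT and MT-TQ are transfer RNAs of 59, 66 and 72 bases, with 0 to 13 reads in each stimulated library. Of the 15 lowest, 6 were called, and the 9 others included 3 pseudogenes and 4 protein-coding genes. The lowest of all, U2AF1L5, a duplicate copy of the splicing factor gene U2AF1, was at 8.98 and 2.58 FPKM in control and 0.573 and 0.626 FPKM in KD cells (-1.90, adjusted p = 0.18), with the 2 control libraries far apart from each other, and reads may be shared with U2AF1. TNNC1, a troponin subunit of slow muscle, was at 9.31 and 10.2 against 4.76 and 4.82 FPKM (-0.89, adjusted p = 0.191), and PTPRS, a receptor phosphatase, at 26.0 and 27.0 against 14.9 and 14.0 FPKM (-0.83, adjusted p = 0.131).

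The mitochondrial genes were looked at after their values were seen. All 13 protein-coding genes of the mitochondrial genome were above 0, with a median of 0.42 and a range from 0.25 to 1.02, 7 were higher at an unadjusted p under 0.05, beside 4.42% of all genes, and 0 were called. The mitochondrial share of all reads was 1.25% and 1.11% in control and 1.55% and 1.55% in KD cells with TNF-α, and the part of this in the results above was not tested.

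The KD difference was then set beside the one without TNF-α, which shares no library with it. In those libraries KD and control cells differed far more widely: 29.8% of the genes tested were higher and 30.2% lower, and in 46.1% the KD difference with TNF-α differed from that without (interaction adjusted p under 0.05). The unstimulated KD libraries stood apart in other measures too. Their mitochondrial share was 4.10% and 4.42%, against 1.11% to 2.03% in the other 6 libraries. The share of MALAT1, an RNA kept in the nucleus, was 0.016% and 0.0191% against 0.0011% to 0.0025%. The mean GC content of annotated transcripts, weighted by the reads of their genes, was 49.9% and 49.4% against 52.5% to 53.2%. This GC value follows from which genes held the reads and was not measured on read sequences. They held 26225 and 26397 genes with a read, against 22072 to 22957. The part of these in the difference without TNF-α and in the interactions was not tested.

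Of the 19 genes called with TNF-α, 18 had the same sign without it. All 9 lowered genes were also called lower without TNF-α, beside 30.2% of all genes. In ACKR3, COL3A1, MATN2, BTG2 and WSB2 the 2 differences did not pass the interaction test. COL3A1, for example, was at 7.27 and 7.07 FPKM in unstimulated control and 2.35 and 2.03 FPKM in unstimulated KD cells (log2 fold change -1.36, adjusted p = 0.00015), and its interaction was 0.07 (adjusted p = 0.733). IFITM2, VOPP1 and LIMK1 had a difference nearer 0 with TNF-α than without, and HNRNPR one further from 0, at 25.0 and 26.3 FPKM in unstimulated control and 19.8 and 18.5 FPKM in unstimulated KD cells (-0.40 without against -0.88 with TNF-α, interaction adjusted p = 0.00861).

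Of the raised genes, 5 of the 10 were also called higher without TNF-α, beside 29.8% of all genes. All but ESM1, 9 of the 10, had an interaction adjusted p under 0.05, beside 46.1% of all genes. The 10 were picked by their difference with TNF-α, which is part of the interaction, so the pick favours interactions above 0. HBEGF changed sign, at 5.92 and 6.09 FPKM in unstimulated control and 5.17 and 4.93 FPKM in unstimulated KD cells (-0.21 without against 0.83 with TNF-α, interaction adjusted p = 0.00119). DUSP5 was at 3.78 and 3.69 FPKM against 4.15 and 4.497 FPKM without TNF-α, a difference of 0.17 that did not pass (adjusted p = 0.112). ESM1 was at 0.371 and 0.386 against 1.70 and 1.33 FPKM without TNF-α (0.86, adjusted p = 0.000606), with an interaction of 0.23 (adjusted p = 0.297). TNF-α itself raised 6 of the 10 in control cells, CXCL8, CCL20, ESM1, DUSP5, KRTAP2-3 and HBEGF, beside 3.1% of all genes. This comparison shares the stimulated control libraries. In it AREG, PHLDA1, IL1B and AC073896.2 had values of 0.37, 0.11, 0.25 and 0.22 without passing.

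**Figure D4:**
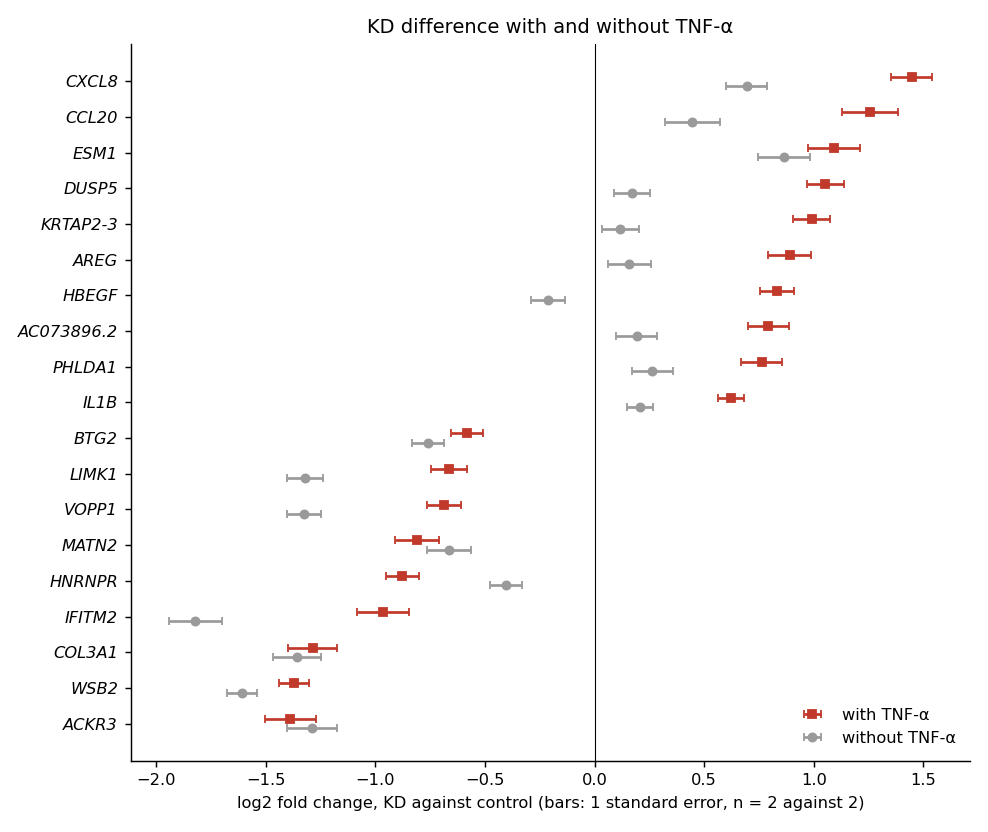
KD against control log2 fold changes of the 19 called genes with TNF-α (red squares) and without TNF-α (grey circles), with 1 standard error from the same limma fit. COL3A1, ACKR3, WSB2, MATN2 and BTG2 lie close together in both conditions, and HBEGF is at -0.21 without and 0.83 with TNF-α.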

How the data were processed

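The authors deposited FPKM values for 58735 genes in 8 libraries, 2 in each of 4 groups. Per the labels' processing notes, CASAVA 1.8, fastp, HISAT2 2.0.5, featureCounts 1.5.0-p3 and DESeq2 1.20.0 were used with GRCh38. Genes match GENCODE release 29. Each value times its gene length was a whole multiple of a library constant (100% within 0.05 reads), which gave 15601098 to 18677023 reads per library; the authors' library sizes were 0.925 to 1.03 times these totals, and 1.21 times in the unstimulated KD libraries. Count tests were not run, since FPKM values are not counts, and voom on the recovered reads was an alternative.

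Groups were taken from the labels. The values were transformed to log2(FPKM + 1) and fitted with limma 3.58.1 in R 4.3.3, with a mean per group over 8 libraries (4 residual degrees of freedom) and a trend on mean expression. A gene was tested if 2 or more libraries held 10 of its reads, scaled to the median depth, and all libraries together 15. P-values were adjusted by Benjamini-Hochberg over the 16528 genes, at 0.05. The script was tested on simulated data.

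Genes named are WSB2, CXCL8, DUSP5, ESM1, ACKR3 and COL3A1, all called genes, the 15 highest and 15 lowest log2 fold changes at an unadjusted p under 0.05 without overlap between the groups and with a mean of at least 1 FPKM, and in each of 34 lists the members at that p, or else the 2 largest. Not all of these genes are described in the text, so the members given for a list can be incomplete. Other members of the lists, relatives and overlapping genes are named for contrast. The comparison, members and lists were chosen with earlier results of these data known. Alternatives were a pseudocount of 0.1, other filters, other sets of libraries, voom, scaling to totals or upper quartiles, a correction for GC content and length (splines with 5 degrees of freedom), a replicate block and leaving out each library. Promoters, 250 bases before each start, came from RefSeq. Tables and plots used Python 3.11.15, numpy 2.4.6, pandas 2.3.3 and matplotlib 3.10.9.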

Additional observations from a re-analysis of the deposited data

Results flagged for a closer look

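In 13 of the 19 called genes the KD difference with TNF-α differed from that without it by an interaction test in the limma fit, at an adjusted p under 0.05. The interaction is the log2 fold change with TNF-α, by which the 19 genes were called, minus the one without. It was 1.04 in HBEGF, 0.884 in DUSP5, 0.874 in KRTAP2-3, 0.81 in CCL20, 0.753 in CXCL8, 0.73 in AREG, 0.6002 in AC073896.2, 0.4997 in PHLDA1 and 0.417 in IL1B among the raised genes. Among the lowered genes it was 0.856 in IFITM2, 0.653 in LIMK1 and 0.636 in VOPP1, whose differences lay nearer 0 with TNF-α, and -0.473 in HNRNPR, whose difference lay further from 0. The same test passed in 46.1% of all genes tested, and the unstimulated KD pair, which enters it, stood apart from the other 6 libraries. Its GC content of annotated transcripts, weighted by reads, was 49.4% and 49.9% against 52.5% to 53.2%. It also differed in its share of MALAT1 and in its 26225 and 26397 genes with a read. The unstimulated control pair had a variance 33.04 times sampling noise. The part of these in the interactions was not tested, and groups of 2 libraries allow no search for outlying libraries.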

How the results depend on the processing

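With 2 libraries a group and 4 residual degrees of freedom, the number of calls depended on the setting. Against 10 genes called higher and 9 lower, a pseudocount of 0.1 called 6 higher, no filter on low reads 3 and 4, a mean of at least 1 FPKM 17 higher, the 4 stimulated libraries alone 24 and 15, and 6 libraries without the unstimulated KD ones 3 and 4. The voom fit of recovered reads called 34 and 18, the correction for GC content and length 46 and 22, and 6 libraries without the unstimulated control ones, added after the data were seen, 69 and 32. Leaving out 1 stimulated library called 0 to 1 higher and 0 to 2 lower, with 3, 1, 1 and 0 of the 19 calls kept without the first and second control and the first and second KD library. By the thresholds of the study, 12 higher and 6 lower became 82 and 110 with a pseudocount of 0.1, 24 and 19 with no filter, 107 and 167 with voom, and 13 to 21 and 13 to 16 with a library left out. The causes were not tested. The libraries of the groups do not overlap in any of the 19 genes, so leaving out 1 could not turn a direction, and none turned under the other settings. CXCL8, DUSP5, HNRNPR and WSB2 were called in 11 of the 11 settings that left out no single library. Of the 160 named genes, only ITGAM, below 1 FPKM throughout, changed sign, from a log2 fold change of 0.02 to -0.00277 without the second control library and -0.0806 without the second KD library (0.111 without the first).

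The labels number the libraries of each group 1 and 2, without saying that a number marks a shared culture or day, and the deviations of same-numbered libraries correlated at 0.017 between control and KD cells with TNF-α (between -0.191 and 0.35 over all 6 pairs of groups). With the number as a replicate block, 6 genes were called higher and 4 lower, 11 and 6 passed the thresholds of the study, and 7445 had an interaction, against 7614.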

Other observations

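Outside the 19 called genes, 14 genes passed an adjusted p under 0.05 in at least 4 of the 11 other settings that left out no single library, 12 higher and 2 lower, and were chosen after their values were seen. PTMA, the abundant chromatin protein prothymosin α, was at 332 and 331 FPKM in control and 200.2 and 207 FPKM in KD cells with TNF-α (-0.70, adjusted p = 0.0758). It has many processed copies in the genome, with which reads may be shared. ATP6V1B2, a subunit of the proton pump of lysosomes, was at 8.83 and 9.22 against 5.38 and 5.82 FPKM (-0.60).

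Of the 12 higher genes, MMP3, TRAF1, IL11 and CTGF are described above. Among the others, SEMA7A, a membrane-anchored semaphorin, was at 62.5 and 69.1 FPKM in control and 109 and 112 FPKM in KD cells (0.74). TMEM158, a membrane protein that responds to Ras, was at 38.0 and 36.5 against 61.3 and 67.8 FPKM (0.77). NLRP3, the sensor of an inflammasome, was at 4.02 and 3.56 against 8.03 and 7.34 FPKM (0.86), and RGS4, a regulator of G protein signalling, at 1.42 and 1.10 against 3.18 and 2.92 FPKM (0.85). None of these passed the adjusted threshold in the fit of all 8 libraries.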
